A study of Mus musculus with 265 samples.

Results

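The regions described here are the accessible regions at the start sites of long noncoding RNA (lncRNA) genes in mouse pre-B cells. A region was a member if its midpoint lay within 1 kb of the start site of a GENCODE vM21 gene typed lincRNA, antisense, processed_transcript or bidirectional_promoter_lncRNA, and more than 1 kb from every protein-coding start site. Of the 20103 regions in the deposited single-cell ATAC-seq matrix, 572 met this rule. They belonged to 492 lncRNA genes, of which 419 had 1 region, 66 had 2 and 7 had 3. By the type of the nearest lncRNA, 284 members were at lincRNA, 189 at antisense, 95 at processed_transcript and 4 at bidirectional_promoter_lncRNA genes. The other regions were divided into 8786 within 1 kb of a protein-coding start site and 10745 away from both kinds.

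The cells were ERt2-Ikaros B3 cells, 1 mouse pre-B line grown in IMDM with fetal bovine serum, in which Ikaros fused to an estrogen receptor domain moves into the nucleus when 4-hydroxytamoxifen is added. Cells were taken before the drug (0 hours) and 24 hours after it, at 20 mM as the labels write it, with a repeat dose at about 12 hours. The same line carrying the same fusion served at both time-points, so time, handling and drug cannot be told apart. Each time-point was captured in 2 Fluidigm C1 runs, which the labels number 1 and 2 at 0 hours and 3 and 4 at 24 hours, and no source used here says whether they were separate cultures.

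A lncRNA is a transcript without a long open reading frame, and many are made at low level from promoters of their own or from promoters shared with a coding gene. Some act at the chromosome where they are made, such as the antisense transcripts of imprinted clusters, and others chiefly carry small nucleolar RNAs or microRNAs in their introns or exons. An open start site in ATAC-seq marks DNA that the Tn5 transposase can reach, and says nothing on whether the RNA is made.

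The sequences below are the 3 lowest-p members in each direction of the comparison between time-points that lie outside coding untranslated exons and occur once in the genome. They are followed by the member seen in most cells and by 4 well-known lncRNAs. They show how widely these start sites differ in CpG content, on which the comparison below turns. All are the forward strand of mm10 from the RefSeq genome of the same build, 5′ to 3′, and capitals mark CG dinucleotides.

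Gm33831 (chr8:34385307-34385454): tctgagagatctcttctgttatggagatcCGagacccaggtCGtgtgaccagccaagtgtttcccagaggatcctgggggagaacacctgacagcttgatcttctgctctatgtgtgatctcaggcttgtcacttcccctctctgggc
1810006J02Rik (chr1:98131348-98131466): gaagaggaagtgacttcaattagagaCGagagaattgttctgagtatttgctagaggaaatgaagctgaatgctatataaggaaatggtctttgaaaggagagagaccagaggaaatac
Gm16794 (chr9:95959864-95960013): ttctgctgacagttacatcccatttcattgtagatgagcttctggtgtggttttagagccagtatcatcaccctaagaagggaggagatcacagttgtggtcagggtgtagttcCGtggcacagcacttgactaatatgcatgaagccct
4930478P22Rik (chr5:35361962-35362113): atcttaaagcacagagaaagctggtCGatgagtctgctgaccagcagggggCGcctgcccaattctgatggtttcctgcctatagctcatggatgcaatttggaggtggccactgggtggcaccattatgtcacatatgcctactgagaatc
2410006H16Rik (chr11:62602716-62602839): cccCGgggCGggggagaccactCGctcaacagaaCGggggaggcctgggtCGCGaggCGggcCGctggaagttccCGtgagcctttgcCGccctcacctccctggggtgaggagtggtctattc
Gm26797 (chr9:122310730-122310859): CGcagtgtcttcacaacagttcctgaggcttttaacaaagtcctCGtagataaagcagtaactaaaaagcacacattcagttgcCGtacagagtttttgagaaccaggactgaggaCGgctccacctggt
Zswim6 (chr13:107890114-107890286): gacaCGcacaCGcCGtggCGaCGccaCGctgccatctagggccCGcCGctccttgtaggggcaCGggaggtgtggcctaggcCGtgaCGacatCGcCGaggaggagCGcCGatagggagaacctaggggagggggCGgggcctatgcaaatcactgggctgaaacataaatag
Mir142hg (chr11:87755444-87755573): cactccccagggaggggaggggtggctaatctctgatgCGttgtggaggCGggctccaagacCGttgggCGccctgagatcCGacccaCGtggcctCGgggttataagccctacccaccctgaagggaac
Snhg5 (chr9:88523141-88523278): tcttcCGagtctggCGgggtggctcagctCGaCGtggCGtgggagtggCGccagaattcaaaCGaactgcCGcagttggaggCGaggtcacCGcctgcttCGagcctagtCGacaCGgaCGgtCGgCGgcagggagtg
Malat1 (chr19:5802590-5802785): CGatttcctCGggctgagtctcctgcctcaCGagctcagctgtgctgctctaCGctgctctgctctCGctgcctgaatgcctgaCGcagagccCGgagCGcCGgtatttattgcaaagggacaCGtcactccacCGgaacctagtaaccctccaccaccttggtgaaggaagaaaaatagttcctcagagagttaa
Dleu2 (chr14:61682286-61682431): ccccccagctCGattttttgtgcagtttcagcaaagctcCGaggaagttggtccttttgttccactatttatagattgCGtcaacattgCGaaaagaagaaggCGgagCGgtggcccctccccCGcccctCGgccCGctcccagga

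The Gm33831 region held 2 CG in 148 bases, 1810006J02Rik 1 in 119 and Gm16794 1 in 150. By contrast, Snhg5 held 16 in 138 bases, Zswim6 16 in 173 and 2410006H16Rik 10 in 124. The members higher at 24 hours were not all of the CpG-rich kind, as 4930478P22Rik held 2 CG in 152 bases. The letters GGGAA, the core that Ikaros binds, or their reverse complement occurred at 2 places in the Gm33831 region, at 1 each in 2410006H16Rik and Mir142hg, and at 0 in the other 8. A match is a description of the letters, not a bound site.

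The matrix held 48 and 47 cells for the 0-hour runs and 60 and 72 for the 24-hour runs, with 164357, 92639, 122586 and 142611 counts. The median counts per cell were 2898, 1787, 1839.5 and 1676, so run 1 was the deepest per cell. Regions within 1 kb of the start were present for 7 pre-B marker genes, with signal in 3.52% to 16.7% of cells, and for 1 of 11 genes of other blood lineages, Lyz2, in 2.64%. No region lay within 1 kb of the start of Rag1, Cd22 or Ikzf1.

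The members were, as a class, as sparse as the matrix as a whole. A member had signal in a median of 13 of the 227 cells, the same median as over all regions, and the range was 5 to 91 cells. Signal was present in all 4 runs for 404 members, and 139 were seen in at least 10% of cells. The median cell of run 1 had signal in 53.5 members, that of run 2 in 34, that of run 3 in 34.5 and that of run 4 in 27.5. After each cell was thinned to 837 counts these medians were 22, 20, 20 and 19, over 48, 46, 47 and 63 cells that were deep enough.

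Within each run, and over all CpG contents, a lncRNA start-site region was on average detected in fewer cells than a protein-coding one and in more cells than a region away from start sites. The mean percent of cells with signal per member was 11% in run 1, 6.66% in run 2, 6.60% in run 3 and 5.99% in run 4. The same means over protein-coding start-site regions were 13.0%, 7.28%, 8.94% and 9.65%, and those over regions away from both were 9.46%, 5.85%, 4.84% and 3.68%. Run 1, the deepest, was highest in each class, and run 4 was lowest in the members and in the regions away from both.

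**Figure D1:**
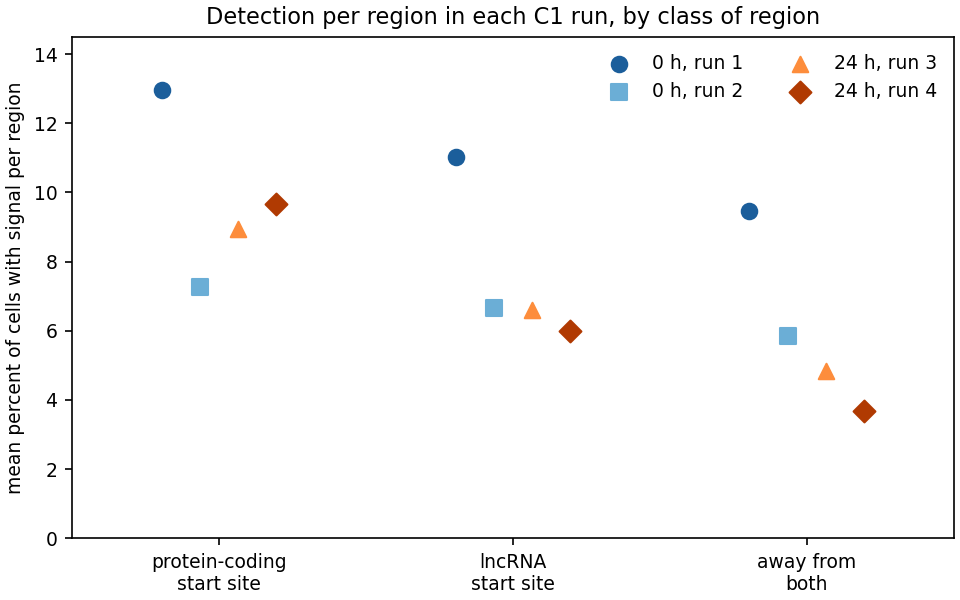
Mean percent of a run's cells with signal per region (vertical axis) for the 3 classes of region, with 1 point per C1 run and no error bar. The lncRNA start-site points lie from 5.99% to 11%, below the protein-coding point and above the point away from both in each of the 4 runs.

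The difference between members and protein-coding start-site regions was -2.14 percentage points ± 1.25 (SD, n = 4 runs) and had this sign in 4 of 4 runs (exact sign-flip test, two-sided, p = 0.125). The difference from regions away from both was 1.61 ± 0.623 (SD, n = 4 runs), again with the same sign in 4 of 4 runs (exact sign-flip test, two-sided, p = 0.125). With 4 runs 0.125 is the smallest p this test can give. In cells thinned to equal depth the differences were -1.04 and 0.804 percentage points.

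Between the time-points, the share of signal that fell in members differed little. Members took 2.84% of the counts of run 1, 2.91% of run 2, 2.78% of run 3 and 2.64% of run 4. Both 24-hour shares were below both 0-hour shares. The ratio of their means was 0.943 (two-sided exact permutation over runs, p = 0.333, the smallest that 2 runs against 2 allow). Protein-coding start-site regions went from 51.0% and 48.5% at 0 hours to 58.3% and 66.4% at 24 hours, a ratio of 1.25. Regions away from both went from 46.1% and 48.6% to 38.9% and 31.0%, a ratio of 0.739. The mean percent of cells per member, averaged over runs, was 8.85% before the drug and 6.29% after it. This ratio of 0.711 (two-sided exact permutation over runs, p = 0.333) became 0.926 in thinned cells.

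No single member passed the test between time-points. In edgeR's quasi-likelihood fit, with p adjusted by Benjamini and Hochberg's method over all regions, 0 of 572 members had an adjusted p under 0.05 in either direction. Over all 20103 regions, 0.0149% were called higher at 0 hours and 0.0398% higher at 24 hours. At an unadjusted p under 0.05, 42 members were higher at 0 hours and 24 at 24 hours, beside 7% and 5.11% of all regions. DESeq2 called 0% of all regions, members included, with 18 and 9 members at an unadjusted p under 0.05, beside 3.15% and 2.25% of all regions. Leaving out run 3 gave 18 member calls (3.15%), 9 in each direction, beside 3.96% of all regions. That fit assumes that the lone run 4 varies like the 0-hour runs. Using run totals as library size gave 1 call, Gm33831, beside 0.164% of all regions.

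Over the whole table, the share of members whose runs did not overlap was close to that of all regions. In normalized signal (CPM, the count scaled to the run's TMM-adjusted total), both 0-hour runs exceeded both 24-hour runs for 150 members (26.2%), beside 25.7% of all regions. The reverse held for 110 members (19.2%), beside 19.3% of all regions. Among protein-coding start-site regions the shares were 13.1% and 28.0%, and among regions away from both 36.0% and 12.1%. Among regions with signal in at least 10% of cells, the shares were 28.1% and 14.4% of 139 members, beside 21.3% and 21.4% of all such regions, and the median fitted log2 changes, 24 hours minus 0 hours, were -0.17 and 0.054. This difference was not tested.

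The median fitted log2 change of the members, 24 hours minus 0 hours, was -0.15, with 313 below 0 and 259 above. It was -0.06 over all regions, 0.33 over protein-coding start-site regions and -0.56 over regions away from both. Setting the 13 members that had no signal at one time-point to the bound their counts allow could not move the members' median. Each bound lies on the same side of that median as the fitted change. Leaving out run 1 turned the members' median to 0.07, beside 0.13 over all regions. Taking the number of cells as library size moved the median of all regions to -0.51 and that of the members to -0.60.

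The members differed among themselves by the CpG content of the 150-bp window around the midpoint. Windows were grouped into at most 2, over 2 to 5, and over 5 CpG per 100 bp, limits that were chosen after the values were seen, so the groups are described without a test. The 172 CpG-poor members had a median log2 change of -0.63, and 66 of them (38.4%) were higher in both 0-hour runs against 17 (9.88%) in both 24-hour runs. The 166 of middle content had a median of -0.40, with 54 (32.5%) and 26 (15.7%). The 234 CpG-rich members had a median of 0.26, with 30 (12.8%) higher in both 0-hour runs and 67 (28.6%) in both 24-hour runs.

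Detection per run was compared between the CpG-poor and CpG-rich groups. CpG-poor members were seen in a mean of 10.2% of cells in run 1, 6.59% in run 2, 4.90% in run 3 and 3.29% in run 4. CpG-poor protein-coding start-site regions were seen in 9.87%, 6.30%, 5.36% and 4.11%, so that the order of the classes was the other way round in runs 1 and 2. CpG-rich members were seen in 12.4%, 7.01%, 8.50% and 9.20% of cells. In the CpG-poor group both 24-hour runs lay below both 0-hour runs, whereas in the CpG-rich group both 24-hour runs lay between the 0-hour runs, run 1 being the deepest. In cells thinned to equal depth CpG-poor members were seen in 3.57%, 3.46%, 2.61% and 1.84% of cells in runs 1 to 4. CpG-rich members were seen in 4.10%, 3.76%, 4.40% and 5.20% of thinned cells, with both 24-hour runs above both 0-hour runs. CpG-poor members took 0.790%, 0.884%, 0.635% and 0.449% of the counts of runs 1 to 4, and CpG-rich members 1.30%, 1.23%, 1.46% and 1.65%.

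**Figure D2:**
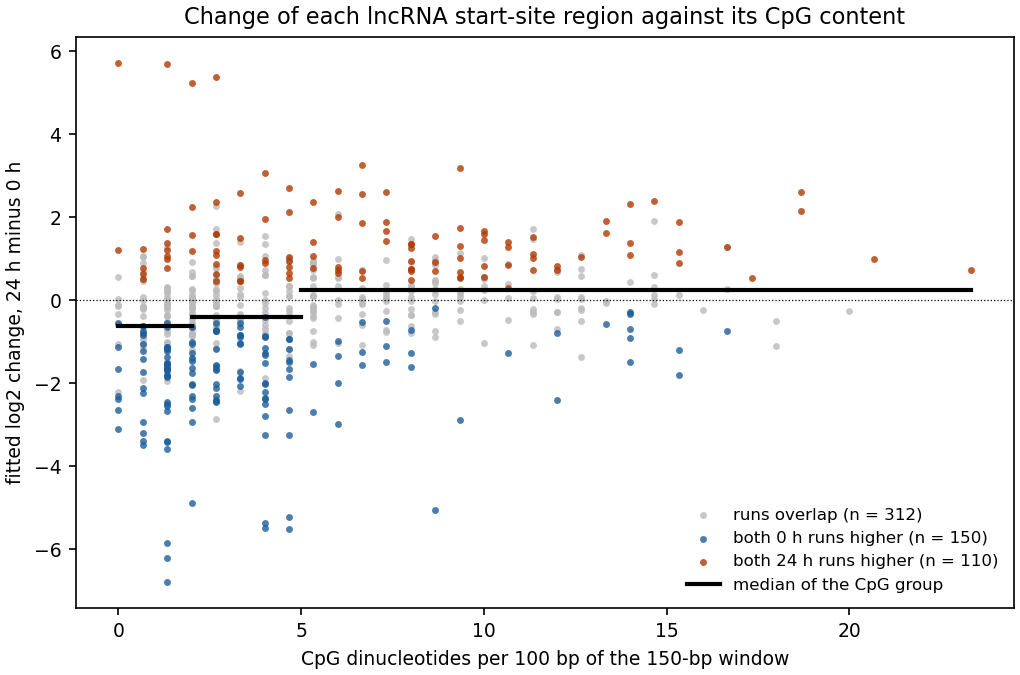
Fitted log2 change between 24 and 0 hours (vertical axis) against CpG dinucleotides per 100 bp of the 150-bp window (horizontal axis) for the 572 members, coloured by whether the runs of the time-points overlap. Black bars are the medians of the 3 CpG groups, -0.63, -0.40 and 0.26.

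This order was not particular to lncRNA start sites. In the same 3 CpG groups the median log2 change was -0.53, -0.01 and 0.41 for protein-coding start-site regions and -0.80, -0.53 and 0.28 for regions away from both. In the CpG-poor group the shares higher in both 0-hour and in both 24-hour runs were 34.8% and 10.4% of protein-coding start-site regions and 41.1% and 9.17% of regions away from both. In the CpG-rich group they were 10.4% and 30.6%, and 16.8% and 26.7%. The difference between the medians of CpG-rich and CpG-poor members was 0.89, and from 0.64 without run 4 to 1.46 without run 3. Over fits without 1 run, the CpG-poor median ranged from -1.19 without run 3 to -0.47 without run 1, the middle one from -0.62 without run 3 to -0.12 without run 1, and the CpG-rich one from 0.14 without run 4 to 0.41 without run 1. With the number of cells as library size the CpG-rich median was -0.22 and the difference 0.87. The CpG-poor and middle medians were both -0.61 with the filterByExpr filter, and -0.62 and -0.70 among regions seen in at least 10% of cells, where the CpG-rich medians were 0.19 and 0.084. The part of the base composition of the libraries in these differences was not tested.

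The classes also differed in composition. The median window of a member had 58.0% GC and 4.0 CpG per 100 bp, against 65.3% and 8.67 for protein-coding start-site regions and 53.3% and 2.0 for regions away from both. The median member was 141 bp wide, with a range of 5 to 278 bp.

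Short motifs were counted on both strands of the same windows. The GC box GGGCGG, a site of Sp1-family factors, was in 33.2% of member windows, 55.2% of protein-coding ones and 13.6% of those away from both, and in 32.3% of all windows. The ETS core CCGGAA was in 13.6%, 24.0% and 6.99%, and in 14.6% of all windows. The E-box CAGNTG, bound by E proteins such as E2A in B-lineage cells, went the other way with 34.1%, 21.8% and 43.9%, and 33.9% of all windows. The Runx letters TGTGGT were in 11%, 5.53% and 22.4%, and in 14.7% of all windows.

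In percentage points GGGAA differed least between the classes, with 40.2% of member windows, 38.0% of protein-coding ones, 40.2% of those away from both and 39.2% of all windows. Within the members it was in 44.2% of CpG-poor, 37.3% of middle and 39.3% of CpG-rich windows. The promoter letters CCAAT and TATAAA were in 22.9% and 4.02% of member windows, against 22.4% and 3.50% of all windows. None of these words contains another, and matches of different words can overlap by a few bases.

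**Figure D3:**
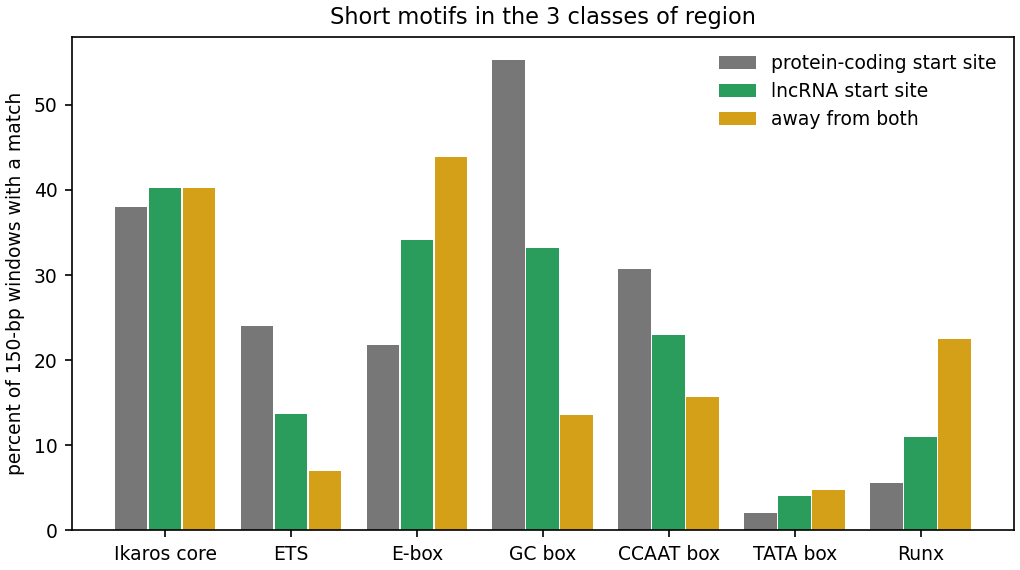
Percent of 150-bp windows with at least 1 match on either strand (vertical axis, from 0) for 7 short motifs in the 3 classes of region. The lncRNA start-site bars lie between the other 2 for the GC box, with 33.2%, and for the E-box, with 34.1%, while the 3 bars of the Ikaros core are within 38.0% to 40.2%.

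By gene type, the medians of the log2 change were -0.17 at lincRNA, -0.18 at antisense and 0.07 at processed_transcript start sites. Members separated at 0 and 24 hours were 25.4% and 19.4% of 284, 30.2% and 17.5% of 189, and 21.1% and 22.1% of 95, beside 25.7% and 19.3% of all regions. The median CpG content in the same order was 3.33, 4.67 and 6.0 per 100 bp. The 4 bidirectional_promoter_lncRNA members had a median log2 change of -0.52. By position, 341 members had the midpoint upstream of the start site and 231 at or downstream of it, and 404 lay within 500 bp, with a median absolute distance of 197 bp. The 404 within 500 bp had a median log2 change of -0.06 and the 168 from there to 1 kb of -0.27. The 229 regions just outside the rule, over 1 kb and up to 2 kb from a lncRNA start and still away from protein-coding starts, had a median of -0.16.

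Many of these start sites lie close to coding genes. Inside the body of a protein-coding gene were 217 members. Although none lay within 1 kb of a protein-coding gene's start, 129 lay within 1 kb of the start of some annotated transcript of a protein-coding gene. The median log2 change of these 129 was 0.03, with a median CpG content of 7.33 per 100 bp, and that of the other 443 was -0.18 with 3.33. In the 443, the CpG-poor, middle and CpG-rich medians were -0.64, -0.40 and 0.29.

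The members with the smallest edgeR p among those higher in both 0-hour runs had signal in few or no cells at 24 hours. Gm33831, a lincRNA on chromosome 8 with the region 447.5 bp downstream of its start, had signal in 11 of 48 and 7 of 47 cells at 0 hours and in 0 of 60 and 0 of 72 cells at 24 hours. At 0 hours this was 18.9% of cells (exact 95% interval 11.6% to 28.3%), and 0 of 132 cells at 24 hours allows a share of up to 2.27% by the limit of 3 counts and of 2.76% by the exact 95% interval. Its pooled normalized signal was at least 8.98-fold higher at 0 hours, against a floor of 3 counts over the 24-hour group, and the edgeR adjusted p was 0.0604, the lowest of any member.

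1810006J02Rik, a lincRNA with the region 49 bp upstream of its start, had signal in 6 and 7 cells of the 0-hour runs and in 0 of each 24-hour run. It was at least 5.65-fold higher at 0 hours against the same floor (edgeR adjusted p = 0.146). Both 0-hour runs thus held similar numbers of cells, and neither 24-hour run held any.

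Others of these 10 kept a few cells at 24 hours. Gm14029 (chr2:129183847-129183990), an antisense lncRNA 14846 bp from the start of Slc20a1, a phosphate transporter gene, had signal in 14 and 9 cells at 0 hours and in 2 and 3 at 24 hours. Its normalized signal was 146 and 136 against 24.3 and 29.3 CPM, a log2 change of -2.35 ± 0.75 (SE; edgeR adjusted p = 0.191). The Gm20069 region at chr12:102612634-102612746 had signal in 11 and 11 cells at 0 hours, in 5 in run 3 and in 0 in run 4, with a log2 change of -2.65 ± 0.87 (SE; edgeR adjusted p = 0.202). For Gm20069 the 24-hour runs differed, and run 4 alone was at 0.

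Gm16794, antisense and 5179 bp from the start of Xrn1, an RNA exonuclease gene, had signal in 12, 4, 1 and 0 cells of runs 1 to 4, with a log2 change of -3.50 ± 1.08 (SE; edgeR adjusted p = 0.179). Gm15409 had signal in 12, 8, 3 and 0 cells, and Gm26532 in 6, 8, 0 and 1. For Gm16794, run 1 held 12 of the 17 cells with signal. The last 3 of the 10, 2600006K01Rik, Gm45352 and 4930517E14Rik, were seen in 8 to 16 cells in all. Of these 10 members 4 had no signal at 24 hours, and so met the 5-cell minimum of the matrix through 0-hour cells alone. In this group 1, 2600006K01Rik, lay within 1 kb of a coding transcript's start.

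Of the 10 members with the smallest p among those higher in both 24-hour runs, 4 lay within 1 kb of a coding transcript's start, beside 22.6% of all members. The region of Gm26582 (chr5:92042660-92042802) lay 333 bp upstream of that lincRNA and 35 bp from the start of a transcript of Cdkl2, a kinase gene. It had signal in 2 and 0 cells at 0 hours and in 10 and 11 at 24 hours, with a log2 change of 3.27 ± 0.84 (SE; edgeR adjusted p = 0.113). Both 24-hour runs stood above both 0-hour runs.

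1700023H06Rik had 3 member regions, whose runs were ordered differently. The region at chr13:80886078-80886223, 626.5 bp upstream of its start and 55.5 bp from the start of a transcript of Arrdc3, an arrestin-like gene, had signal in 4 and 5 cells at 0 hours and in 16 and 24 at 24 hours. Its log2 change was 2.15 ± 0.62 (SE; edgeR adjusted p = 0.15). The region closest to the lncRNA start had signal in 14, 7, 13 and 8 cells of runs 1 to 4, and the runs overlapped. The farthest one had signal in 1, 2, 3 and 1 cells.

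2410006H16Rik, a processed transcript with a CpG-rich region 99.5 bp upstream of its start and 21511 bp from the closest coding transcript start, had signal in 3 and 4 cells at 0 hours and in 8 and 22 at 24 hours. Its log2 change was 1.86 ± 0.70 (SE; edgeR adjusted p = 0.27), and ranged from 1.07 without run 1 to 3.00 without run 2. Run 4 alone held 22 of its 37 cells. 9430091E24Rik (chr8:111145550-111145724) had signal in 2, 2, 7 and 11 cells, with a log2 change of 2.61 ± 0.83 (SE; edgeR adjusted p = 0.191), but its sequence matched 2 places in the genome.

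AC090479.2, antisense and 96.5 bp from a transcript start of Rbbp8, a DNA end-resection gene, had signal in 2, 2, 7 and 9 cells. Gm26901, with 2 genome copies, had signal in 1, 0, 8 and 5. Gm43695, 4930478P22Rik, Gm26797 and Gm46355 had no signal in any 0-hour cell and were seen in 5 to 8 cells at 24 hours. These 4 met the 5-cell minimum of the matrix through the 24-hour cells alone.

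**Figure D4:**
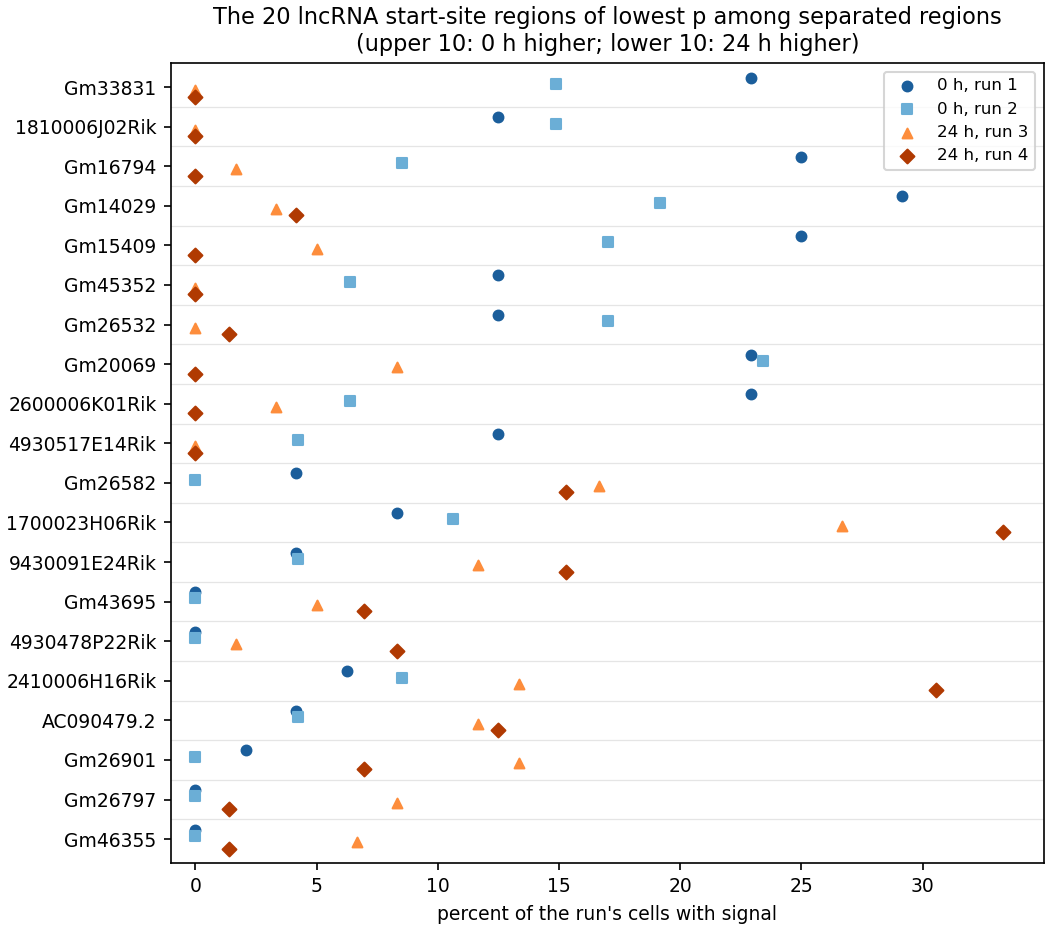
Percent of a run's cells with signal (horizontal axis) in each C1 run for the 10 members of lowest edgeR p with both 0-hour runs higher and the 10 with both 24-hour runs higher. These members were chosen for not overlapping, and the plot shows sizes, from Gm33831 at 22.9%, 14.9%, 0% and 0% to 1700023H06Rik at 8.33%, 10.6%, 26.7% and 33.3%.

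The members seen in most cells were open in all 4 runs. Zswim6, typed processed_transcript in GENCODE vM21 although its symbol is that of a zinc finger protein gene, had signal in 19, 15, 21 and 36 cells of runs 1 to 4, 40.1% of all cells. 1110020A21Rik (chr17:84957705-84957844), a bidirectional promoter lncRNA 1034 bp from the start of the phosphatase gene Ppm1b, had signal in 17, 15, 19 and 39 cells. 2700012I20Rik, 204 bp from a transcript start of the corepressor gene Sin3a, had signal in 22, 12, 21 and 33 cells. For these 3 members run 4, which had the most cells of the 4 runs, held the most cells with signal. The log2 changes of these 3 were 0.55 ± 0.45, 0.86 ± 0.46 and 0.54 ± 0.47 (SE), with edgeR adjusted p of 0.675, 0.464 and 0.698.

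The next 7 in order of cells were 1700096K18Rik with 64, Gm10433 with 60, Gm4117 with 55, 1700028E10Rik with 52, Gm33524 with 51, 6430590A07Rik with 50 and 6720427I07Rik with 49. Gm4117, antisense near Vcan, was higher in both 0-hour runs, and the other 6 were either higher in both 24-hour runs or overlapped. Their edgeR adjusted p ranged from 0.626 to 0.967. The region of 1700023H06Rik near Arrdc3 also had 49 cells. Of these 10 most open members 9 had 3.33 to 12.7 CpG per 100 bp, and Gm33524, in the region of the transcription factor gene Egr3, had 0.667.

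Of the characterised lncRNAs on the lists used here, 26 regions were members, and 0 passed the edgeR test. Listed by gene symbol as hosts of small nucleolar RNAs and microRNAs were 16, Snhg7os among them. Their fitted changes were above 0 in 10 and below 0 in 6. Of the 16, 2 (12.5%) were higher in both 0-hour runs and 5 (31.2%) in both 24-hour runs. These shares stand beside 25.7% and 19.3% of all regions and 12.8% and 28.6% of CpG-rich members. The hosts had a median of 10.3 CpG per 100 bp, and the 5 regions belong to 3 genes, Snhg5, Mir142hg and Snhg17. The median log2 change of the 16 was 0.49, and -0.02 with the number of cells as library size. It was 0.094 without run 3, 0.27 without run 4, and 0.0078 over the 5 seen in at least 10% of cells, of which 1 was higher in both 0-hour runs and 0 in both 24-hour runs.

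Snhg5, a snoRNA host, had 2 regions. The nearer to its start had signal in 2, 0, 8 and 6 cells, with a log2 change of 2.40 ± 1.14 (SE; edgeR adjusted p = 0.374), and the other in 7, 6, 6 and 11, with both 24-hour runs higher in CPM for each. The nearer was the only region of these 26 with an unadjusted edgeR p under 0.05. Snhg17 had signal in 2, 0, 4 and 6 cells, with both 24-hour runs higher, and Snhg15 in 9, 6, 6 and 6, with both 0-hour runs higher. Snhg6, Snhg9, Snhg12, Snhg20, Snhg7os and Epb41l4aos were seen in 12 to 35 cells and their runs overlapped.

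Dleu2, host of miR-15a and miR-16-1, had signal in 3 and 0 cells at 0 hours and in 1 and 18 at 24 hours. The 18 cells were all of run 4, and the log2 change of 2.07 ± 1.04 (SE; edgeR adjusted p = 0.417) was -1.04 without that run and was called, at 2.92, without run 3. Run 3 lay between the 0-hour runs.

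Among the microRNA hosts of blood cells, the region 68.5 bp upstream of Mir142hg had signal in 8 and 6 cells at 0 hours and in 14 and 10 at 24 hours, or 54.6 and 94.0 against 170 and 110 CPM. Its log2 change was 0.95 ± 0.62 (SE; edgeR adjusted p = 0.579). Both 24-hour runs were above both 0-hour runs in CPM, though in percent of cells run 4, with 13.9%, lay between the 0-hour runs. The other Mir142hg region, also higher in both 24-hour runs in CPM, had a log2 change of 1.21 (edgeR adjusted p = 0.657). That change was 1.78 without run 3 and 0.24 without run 4.

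Mir155hg, host of a microRNA of activated B cells, had signal in 5, 3, 3 and 2 cells with both 0-hour runs higher, a log2 change of -0.73 ± 1.02 (SE; edgeR adjusted p = 0.836). Mir17hg, host of the miR-17-92 cluster, had signal in 5, 4, 6 and 0 cells, so that run 4 alone was at 0. Mir22hg had signal in 5, 4, 1 and 4.

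The nuclear, imprinted and X-linked lncRNAs with a member region were Malat1, Kcnq1ot1, Nespas and Firre. Malat1, one of the most abundant nuclear RNAs, had its region 15.5 bp upstream of the start, with signal in only 0, 1, 2 and 3 cells of runs 1 to 4, or 2.64% of all cells. Kcnq1ot1, the antisense transcript of an imprinted cluster, had signal in 8, 7, 9 and 8 cells with a log2 change of 0.23 ± 0.61 (SE; edgeR adjusted p = 0.921). Nespas had signal in 5, 3, 4 and 9 cells and Firre, which takes part in nuclear organization, in 2, 3, 1 and 3. Of these 4, Malat1 was the one whose runs did not overlap, with both 24-hour runs higher.

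The remaining 6 were Pvt1, Trp53cor1, Lncpint, Crnde, Dubr and Lockd, with 5 to 31 cells each. Pvt1, next to Myc, had signal in 3, 1, 1 and 0 cells, and Trp53cor1, next to the cell cycle inhibitor gene Cdkn1a, in 4, 3, 3 and 2. Both had both 0-hour runs higher, with log2 changes of -2.0 ± 1.77 and -0.40 ± 1.17 (SE; edgeR adjusted p = 0.708 and 0.933). Lockd, downstream of Cdkn1b, had signal in 5, 2, 3 and 12 cells, a log2 change of 0.91 ± 0.79 (SE; edgeR adjusted p = 0.7) that was -0.48 without run 4.

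**Figure D5:**
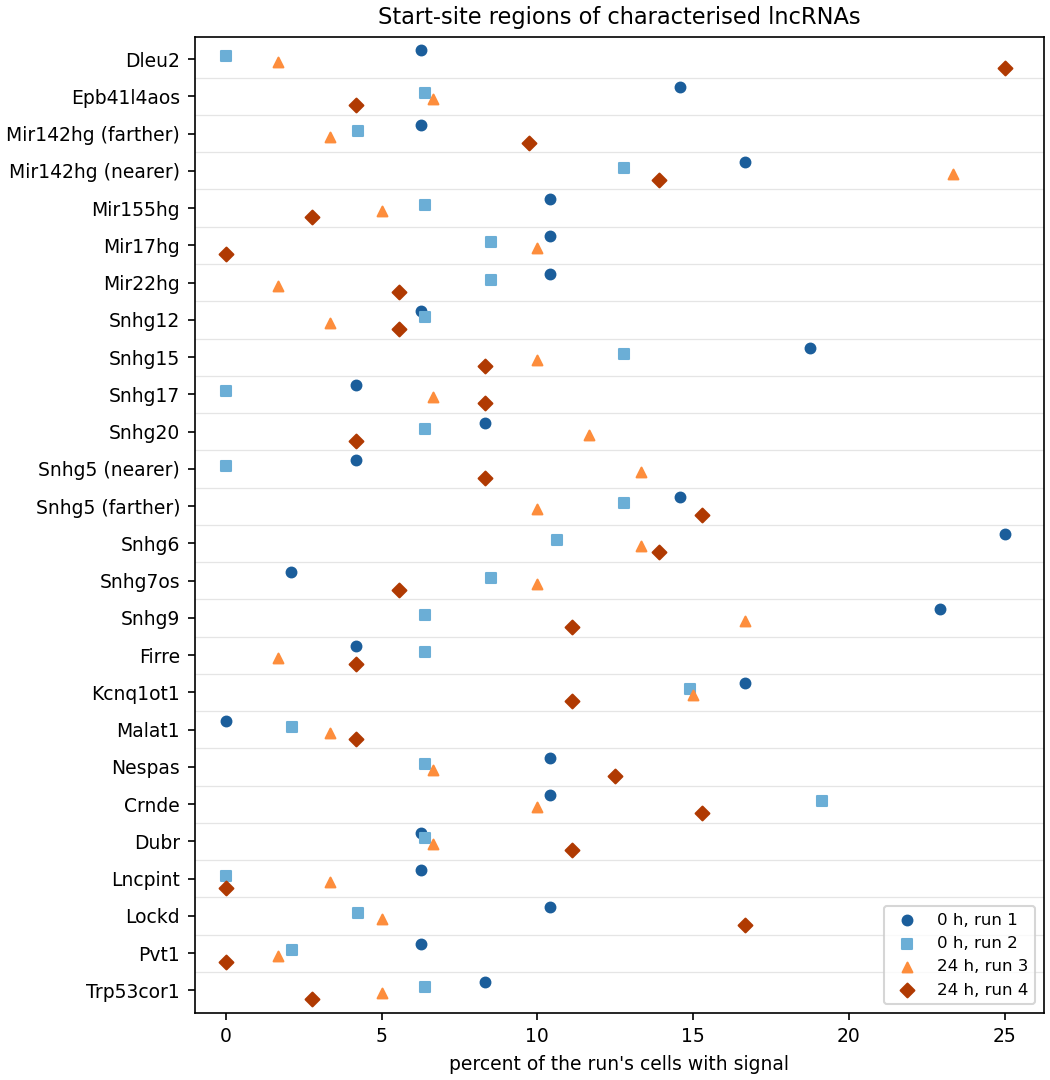
Percent of a run's cells with signal (horizontal axis) in each C1 run at the 26 start-site regions of characterised lncRNAs, from small-RNA hosts at the top to other characterised lncRNAs at the bottom. "Nearer" and "farther" name 2 regions of 1 gene by their distance from the start, and for Dleu2 run 4, at 25.0%, stands apart from 6.25%, 0% and 1.67%.

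Near genes of the B-lineage list, 8 members lay within 50 kb of a start, among them the Lockd region described above. Of the 8, 0 passed the edgeR test. Their median log2 change was 0.80, and -0.20 without run 4. Higher in both 0-hour runs were 2 (25.0%) and in both 24-hour runs 2 (25.0%), beside 25.7% and 19.3% of all regions. Gm47680 (chr9:32613040-32613186), a lincRNA 23108 bp from the start of Ets1, a transcription factor of lymphocytes, had signal in 7 and 4 cells at 0 hours and in 14 and 12 at 24 hours. Its log2 change was 1.24 ± 0.57 (SE; edgeR adjusted p = 0.358). Gm26735, 10628 bp from the start of Sox4, had signal in 2, 2, 6 and 3 cells. For both, the 24-hour runs were higher in CPM.

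Gm43352, antisense and 329 bp from a transcript start of Lef1, had signal in 5, 2, 3 and 0 cells, and Gm44646, near Spib, in 4, 2, 0 and 1, with both 0-hour runs higher for each. The 2 regions of Gm28556 near Ptprc, the gene of the CD45 phosphatase, had signal in 11, 9, 11 and 4 cells and in 0, 1, 1 and 3. Gm49595, 41232 bp from the start of Vpreb1, a surrogate light chain gene, was seen in 4, 0, 1 and 5 cells.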

How the data were processed

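Single-cell ATAC-seq libraries of 4 C1 runs were analysed, and 6 bulk samples were not analysed here. The authors mapped reads to mm10 with Bowtie2, removed duplicates with Picard, called peaks on bulk samples with HOMER and deposited whole-number counts per region and cell, without normalization. No value is above 2, and no source used here says how this came about. The matrix holds only regions with signal in at least 5 cells, so lncRNA start sites seen in fewer cells are not among the members, and no further filter was used. The columns of 227 cells were used, and the labels list 48, 63, 75 and 73 cells for runs 1 to 4. No doublet caller was run. One of the marker genes checked is not reported here.

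Start sites came from GENCODE vM21, and regions were joined to the nearest one. The cells of a run were pooled by summing their counts. Differences between time-points came from edgeR 4.0.16 (R 4.3.3), with TMM factors, the quasi-likelihood fit, p adjusted over all 20103 regions by Benjamini and Hochberg's method, and a threshold of 0.05. DESeq2 1.42.0 was an alternative. Values over runs were compared by two-sided exact tests, whose smallest p is 0.333 between time-points and 0.125 for sign flips. Neither the labels nor the paper say that runs were separate cultures, so p-values measure the spread between runs, which may be technical. Intervals of 95% (exact Clopper-Pearson) and the limit of 3 counts for a count of 0 cover counting error only.

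For equal depth, each cell was thinned to 837 counts, the 10th percentile, and 23 shallower cells were left out. Windows of 150 bp at region midpoints were read from the RefSeq mouse genome of the same build. Copies were counted with BLAST 2.17.0 at 90% identity over 80% of a region.

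Named members were those of lists of characterised lncRNAs, up to 10 in each direction of smallest p among members whose runs did not overlap, the 10 seen in most cells, and those within 50 kb of the start of a B-lineage gene. The members and lists were chosen with earlier results of these data known, and the CpG groups after the values were seen. Alternatives were other normalizations, filters, detected or not detected values, each run left out, transcript start sites, a 500 bp limit, regions at most 50% masked as repeat, regions with 1 copy, thinned cells and a replicate block.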

Additional observations from a re-analysis of the deposited data

How the results depend on the processing

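Of 102 refitted values on which the comparisons rest, 85 kept their direction and were classed as unchanged, though the class took in shifts of size. It held the difference from protein-coding start-site regions, -2.14 percentage points and -1.04 in thinned cells. It also held the members' median log2 change, -0.15 and -0.06 within 500 bp of the start site. The separated counts with a replicate block could not differ, as the block leaves CPM unchanged. With run totals in place of TMM, 1 member was called, higher at 0 hours. With the number of cells as library size, 49 members (8.57%, beside 8.94% of all regions) were separated at 24 hours, the members' median log2 change was -0.60 and that of CpG-rich members -0.22. The filterByExpr filter left 140 members, with 38 and 28 separated at 0 and 24 hours (27.1% and 20.0%, beside 22.9% and 23.3% of all regions). A minimum of 10% of cells left 139, with 39 and 20 (28.1% and 14.4%, beside 21.3% and 21.4%). Leaving out 1 run in turn gave 0 to 9 calls in each direction, all without run 3, where 797 of 20103 regions were called, against 6, 1 and 10 without runs 1, 2 and 4. It gave 208 to 247 members separated at 0 hours (36.4% to 43.2%, beside 36.8% to 41.2% of all regions) and 174 to 194 at 24 hours (30.4% to 33.9%, beside 29.4% to 34.6%), where 1 run against 2 overlaps less often by construction, and medians from -0.29 without run 3 to 0.072 without run 1. The cause of the last was not tested. The headers number the runs within each time-point, and the deviations of the first run of each correlated at -0.011. With a replicate block, 0 members were called and the median was -0.17.

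Of 490 refitted log2 changes of 46 named members, 463 kept their sign and 27, in 13 members, did not. With the number of cells as library size Snhg6 was at -0.46, Snhg9 at -0.31 and Kcnq1ot1 at -0.19. Snhg6 was also at -0.0058 with run totals, -0.12 with filterByExpr and -0.23 with the 10% minimum, where Kcnq1ot1 was at -0.030. With detected or not detected values, Snhg12 was at 0.047 and Crnde at 0.28. Over fits without 1 run, Snhg6 ranged from -0.17 to 0.38, Mir22hg from -1.78 to 0.018, Snhg20 from -0.043 to 1.45, Dleu2 from -1.04 to 6.25 and Mir17hg from -5.54 to 0.75. Snhg9 ranged from -0.30 to 1.56, Epb41l4aos from -0.77 to 0.038, Snhg12 from -0.82 to 0.49, Lncpint from -4.30 to 3.07, Lockd from -0.48 to 1.59 and Kcnq1ot1 from -0.017 to 0.50. Crnde ranged from -0.74 to 0.90 and Firre from -2.07 to 0.52. In 33 of the 46, a fit without 1 run moved the change by over 1.5-fold, among them Gm26582 (2.58 to 7.17), Gm16794 (-6.71 to -2.53) and the nearer Snhg5 region (1.72 to 5.90). The upper extremes of Gm26582, Snhg5 and Dleu2, the lower ones of Gm16794 and Mir17hg and both of Lncpint have a time-point at 0 counts, where the fitted value depends on the prior count.

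The median member had 4 to 6 counts in a run.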

Other observations

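Most member regions had sequence of their own, but 34 of 572 matched more than 1 place in the genome and 6, all short, matched none. The extremes were the regions of Gm30382, on chromosome 3, with 130131 matches, CR974462.6, on chromosome 17, with 268, and Gm7967, on chromosome 1, with 120. Gm30382 had signal in 3 cells at 0 hours and 3 at 24 hours, CR974462.6 in 5 and 8, and Gm7967 in 10 and 4. Whether the reads of such regions were placed uniquely was not tested, and none of the 3 is among the members named above.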
